A study of Mus musculus with 8 samples.

Results

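Cyp2b10 and 8 genes related to it by family, chromosome or function were described in brown adipose tissue (BAT) of mice. They were picked by symbol from the 49452 genes of the deposited table, and all 9 were found: Cyp2b10, Cyp2b9, Cyp2b13, Cyp2b19, Cyp2b23, Cyp2e1, Cyp2f2, Nr1i3 and Por. Cyp2b10 itself was chosen because it had the largest rise in the cold in these same libraries, so its cold difference and those of the other Cyp2b genes are given as a description with no test. The study asked which transcripts follow the activity of BAT, and RNA-Seq was done on 8 BAT libraries of male C57BL/6 mice in 4 groups of 2. Mice aged 10 to 12 weeks were housed at 22 °C (replicates 4 and 7) or exposed to 4 °C for 24 h (replicates 2 and 11), of which the last 4 h were a fast after 20 h in the cold. The study's methods leave unclear if the 22 °C mice were fasted as well. Mice aged 32 weeks had received a control diet (CD, replicates 6 and 8) or a high-fat diet (HFD, replicates 2 and 6) for 28 weeks, and the labels call the control food normal chow. No group carried a transgene or a deleted allele. Values are taken as FPKM, fragments scaled to transcript length and to the mapped fragments of the library, so levels can be set side by side between genes.

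Cytochrome P450 enzymes are haem proteins of the endoplasmic reticulum and mitochondria that oxidise drugs, steroids, fatty acids and other lipids. Those of the endoplasmic reticulum take electrons from NADPH through the reductase encoded by Por. Cyp2b10 is best known in liver, where barbiturate-like compounds switch it on through the constitutive androstane receptor (CAR), the product of Nr1i3, which pairs with a retinoid X receptor on DNA. Cyp2e1 oxidises ethanol, acetone and fatty acids and is abundant in liver, and Cyp2f2 acts on naphthalene in the club cells of the airway.

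The 8 libraries listed 23543 to 32686 genes above 0, and 10228 to 11436 genes reached 1 FPKM. The satellite-repeat gene Gm10800 was at 447 to 15726 FPKM in 1 library of every group, namely replicate 4 at 22 °C, replicate 11 at 4 °C, replicate 8 of CD and replicate 2 of HFD, and at 0.0998 to 4.13 FPKM in the others. The former are termed satellite-high here and the latter satellite-low, and differences within each type are given beside the results. The library names also carry a different prefix for CD replicate 8 and both HFD libraries than for the other 5. The brown adipocyte markers were present in every library, with Ucp1, the uncoupling protein of heat production, at 699 to 6462 FPKM. Of 17477 genes tested in the cold, 1.22% were past threshold and higher at 4 °C, and 0.223% were past threshold and lower. These shares stand for 213 and 39 genes, and the numbers were 493 and 265 with median centring, 315 and 258 after rescaling to the autosomal sum without Ucp1, and 1 and 0 without 4 °C replicate 2. Past threshold means an adjusted p (limma, Benjamini-Hochberg over all genes tested) under 0.05 and a difference of at least 1 in log2(FPKM + 1). Of the 8 brown adipocyte markers, Ppargc1a and the deiodinase Dio2 were past threshold and higher in the cold; Dio2 had a log2 difference of 3.01 (SE 0.22, adjusted p 0.0196, limma), and an adjusted p of 0.0838 without 4 °C replicate 2 and of 0.0880 with no filter on low values. In all, 6 of the 8 markers were higher in both 4 °C libraries, as were 37.9% of all genes tested. The other 2, Adipoq (log2 difference −0.78) and Prdm16 (−0.68), were lower in both, as were 20.6% of genes, and neither was past threshold. Of 17543 genes tested in the diet comparison, 0.0513% were past threshold and higher in HFD, and 0.0171% were past threshold and lower. These are 9 and 3 genes, and the numbers were 23 and 21 with median centring and 0 and 0 after rescaling, where 2321 genes had an unadjusted p under 0.05 with limma. The labels number the libraries but do not say that each came from its own mouse, so p-values measure only the spread between these libraries.

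The Cyp2b genes are near copies of each other, and the sequences show how far a read can tell them apart. Cyp2b10 (ENSMUSG00000030483, 9 exons) lies at chr7:25897620-25926624 on the plus strand of GRCm38. Cyp2b13 (chr7:26061497-26096197, plus), Cyp2b9 (chr7:26173411-26210661, plus), Cyp2b23 (chr7:26665227-26686437, minus) and Cyp2b19 (chr7:26757142-26772630, plus) follow it in the same cluster. Their coding sequences were 88.7%, 87.8%, 87.6% and 87.6% identical to that of Cyp2b10. The first 99 coding bases of Cyp2b10 and of 3 of these genes are shown because they align without gaps, and capitals mark each base that differs from Cyp2b10.

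Cyp2b10: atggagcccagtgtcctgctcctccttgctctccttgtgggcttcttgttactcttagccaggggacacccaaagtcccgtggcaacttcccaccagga

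Cyp2b9: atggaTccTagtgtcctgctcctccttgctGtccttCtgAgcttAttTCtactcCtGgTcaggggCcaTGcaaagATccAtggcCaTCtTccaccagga

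Cyp2b13: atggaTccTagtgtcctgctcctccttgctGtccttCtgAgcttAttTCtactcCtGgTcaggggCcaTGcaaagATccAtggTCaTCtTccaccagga

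Cyp2b23: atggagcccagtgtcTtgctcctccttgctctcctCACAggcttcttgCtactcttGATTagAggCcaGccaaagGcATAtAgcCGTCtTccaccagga

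Cyp2b9 differed from Cyp2b10 at 21 of these 99 positions, Cyp2b13 at 22 and Cyp2b23 at 23. Over the whole transcripts, the longest exact run shared with Cyp2b10 was 86 bases in Cyp2b13, 56 in Cyp2b23, 55 in Cyp2b9 and 53 in Cyp2b19. None of the 1817 runs of 100 bases in the longest Cyp2b10 transcript, the length of a read, occurred in a GENCODE transcript of another gene. Of runs of 50 bases, 181 of 1867 (9.70%) did. At 100 bases the share was 9.29% for Cyp2b13, 1.18% for Cyp2b9, 0.239% for Cyp2b23 and 0.189% for Cyp2b19. A read of Cyp2b10 with no error therefore matched no other annotated transcript over its full length, whereas part of the Cyp2b13 reads also fit the transcripts of Cyp2b9 or of Gm45225.

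**Figure D1:**
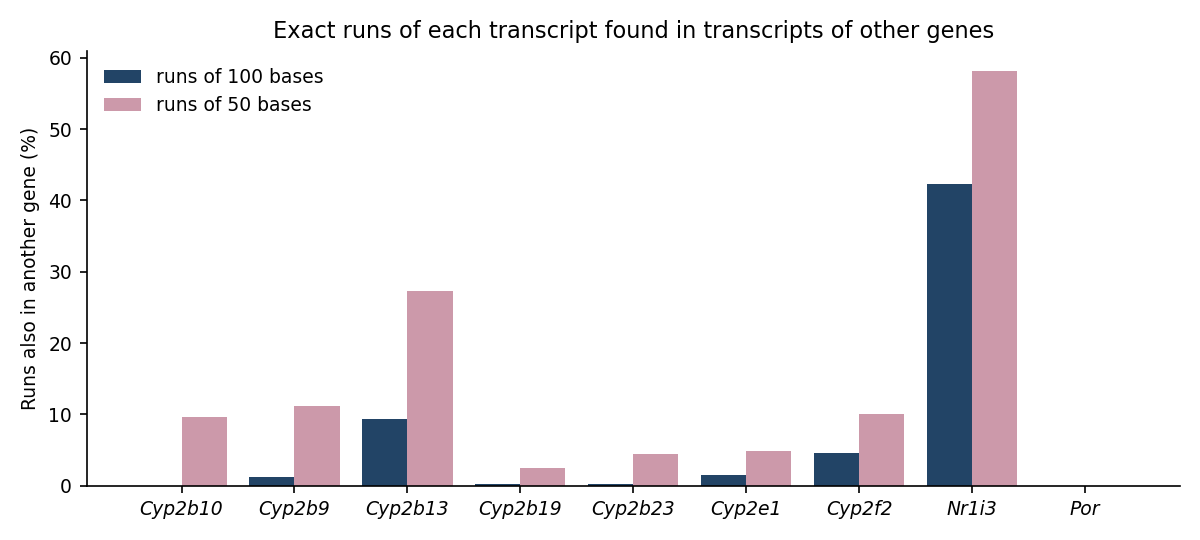
Share (%) of all exact runs of 100 bases (dark bars) and 50 bases (light bars) of each gene's longest transcript that also occur in an annotated transcript of another gene. Cyp2b10 and Por have no bar at 100 bases, and Nr1i3 has the tallest at 42.3%.

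For the other genes the share of shared 100-base runs was 0% in Por, 1.50% in Cyp2e1, 4.64% in Cyp2f2 (all with Gm15883) and 42.3% in Nr1i3. The Nr1i3 runs all lie in Tomm40l, which encodes a mitochondrial import channel protein and whose transcripts overlap those of Nr1i3. The FPKM of Nr1i3 is uncertain for that reason, and no source used here says if strand entered the quantification.

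Cyp2b10 was the gene with the largest cold difference of all 17477 tested. It had 0.495 and 0.399 FPKM in 22 °C replicates 4 and 7, and 115 and 249 FPKM in 4 °C replicates 2 and 11. Both cold libraries lay far above both others, and the lower cold value was 233 times the higher value at 22 °C. The group means were 0.447 ± 0.0675 and 182 ± 94.4 FPKM (SD, n = 2 each), a ratio of 407. The difference in log2(FPKM + 1) was 6.88 (SE 0.38), with 7.38 between the satellite-high libraries and 6.38 between the satellite-low libraries. Among genes past threshold, the next in that order were Trim63, a ubiquitin ligase of muscle, and Csrp3, a muscle LIM protein. Their differences were 5.71 and 5.63. Estimated from the step that 1 fragment makes in low FPKM values, Cyp2b10 rested on about 108 and 85 fragments at 22 °C and on about 18253 and 46078 at 4 °C. These numbers take the length of its longest transcript and are approximate.

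Levels of skeletal muscle markers differed between the same libraries. All 11 muscle markers in the table were higher in the cold, each in both libraries, as were 37.9% of all genes tested. The median log2 difference was 3.46, although none was past threshold with limma (lowest adjusted p 0.0627). Their summed level was 103 to 497 FPKM at 22 °C and 1812 to 4267 FPKM at 4 °C. The hepatocyte markers, among them albumin, summed to 1.68 to 6.73 FPKM at 22 °C and to 0.970 to 1.94 FPKM at 4 °C. The part of muscle or liver RNA in the Cyp2b10 difference was not tested. In bulk tissue, more cells of a type and more RNA per cell cannot be told apart.

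**Figure D2:**
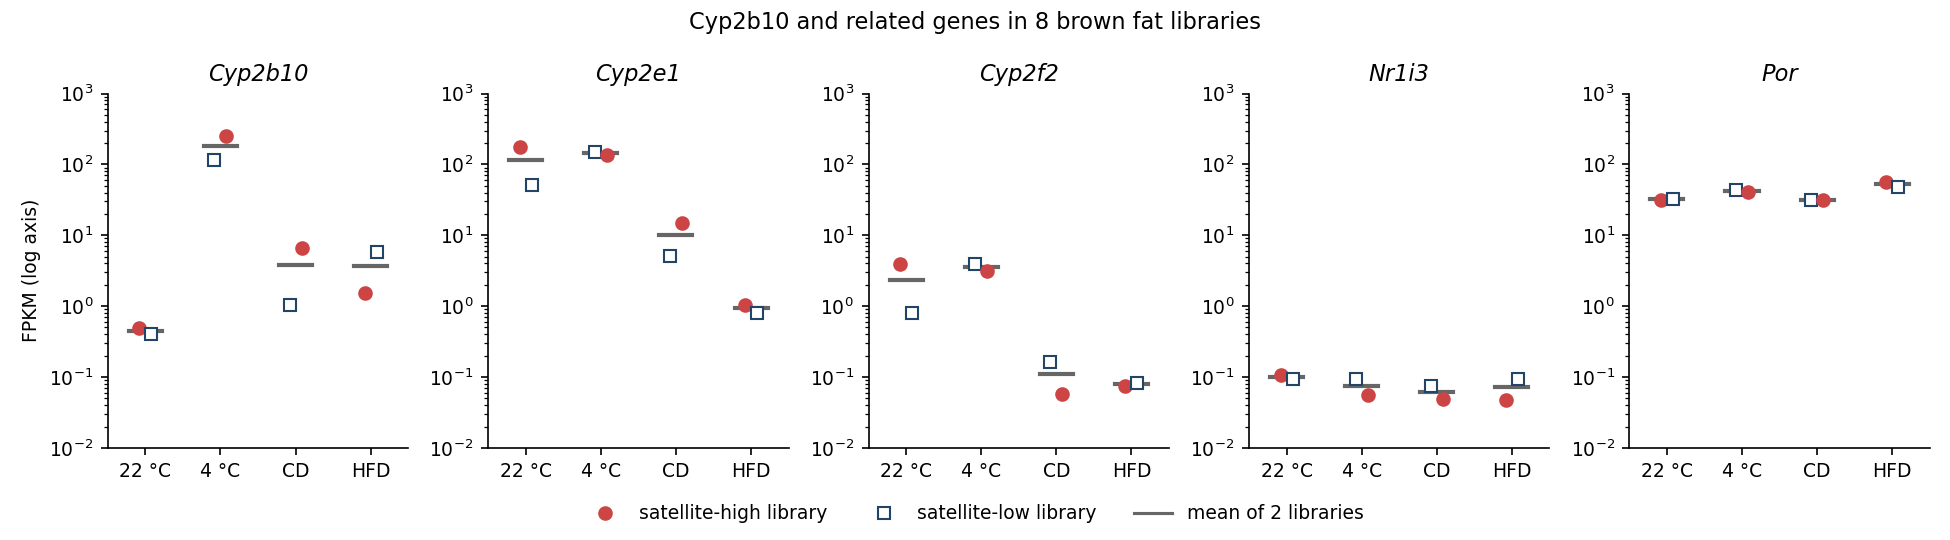
FPKM on a log axis of Cyp2b10, Cyp2e1, Cyp2f2, Nr1i3 and Por in the 4 groups; each point is 1 library, circles satellite-high and squares satellite-low, and bars are the means of 2. Cyp2b10 stands at 115 and 249 FPKM at 4 °C and at 0.399 to 6.62 FPKM in all other libraries, while Por stays between 31.4 and 55.9 FPKM.

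Diet was the independent comparison for Cyp2b10, since it played no role in the choice of the gene. The levels were 1.03 and 6.62 FPKM in CD replicates 6 and 8, and 1.51 and 5.76 FPKM in HFD replicates 2 and 6. Each group held a low and a high library, and the groups overlapped. The means were 3.82 ± 3.95 and 3.64 ± 3.01 FPKM (SD, n = 2 each), and the log2 difference was 0.07 (SE 0.68, 95% interval −1.52 to 1.66, adjusted p 0.974, limma). The spread between replicates was larger than the difference, its sign turned with the scaling, and the interval covers changes of more than 1 on the log2 scale both ways. The difference was −1.60 between the satellite-high libraries and 1.74 between the satellite-low libraries. All 4 diet libraries lay above both 22 °C libraries and below both 4 °C libraries. The 2 experiments differed in the age of the mice, age and experiment cannot be told apart here, and no test was made between them.

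The other Cyp2b genes, of which Cyp2b9 and Cyp2b13 are known from liver, were at or near 0 in every library, the cold ones included. In 4 °C replicate 11, where Cyp2b10 was at 249 FPKM, Cyp2b9, Cyp2b13, Cyp2b19 and Cyp2b23 were all listed at 0. In 4 °C replicate 2 only Cyp2b23 was above 0, at 0.00548 FPKM, the value of 1 fragment. A count of 0 allows up to 3 fragments, which for these genes and the cold libraries is 0.0110 to 0.0194 FPKM. Cyp2b10 made up 99.995% and 100% of the summed Cyp2b level in the cold libraries, and its share ranged from 82.3% to 100% over all 8.

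Cyp2b9 had 0.0234 and 0 FPKM at 22 °C, 0 and 0 at 4 °C, 0 and 0.00616 in CD and 0.0173 and 0.00638 in HFD. Cyp2b13 was above 0 in 22 °C replicate 4 (0.0141 FPKM), CD replicate 8 (0.0370) and HFD replicate 2 (0.00576) and listed at 0 in the other 5. Cyp2b19, which is known from the epidermis, was above 0 in the same 3 libraries at 0.0572, 0.139 and 0.0926 FPKM. These 3 libraries are satellite-high, and in them all 4 genes were above 0 with a sum of about 29, 42 and 31 fragments. In the other 5 libraries at most 1 of the 4 genes was above 0. The values thus followed the library type rather than the group in 3 of the 4 groups. The exception was 4 °C replicate 11, which is satellite-high with all 4 genes at 0. Its Gm10800 level of 447 FPKM was far below the 6464 to 15726 FPKM of the 3 satellite-high libraries named above. No Cyp2b gene except Cyp2b10 reached the 0.1 FPKM in 2 libraries that a test required.

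**Figure D3:**
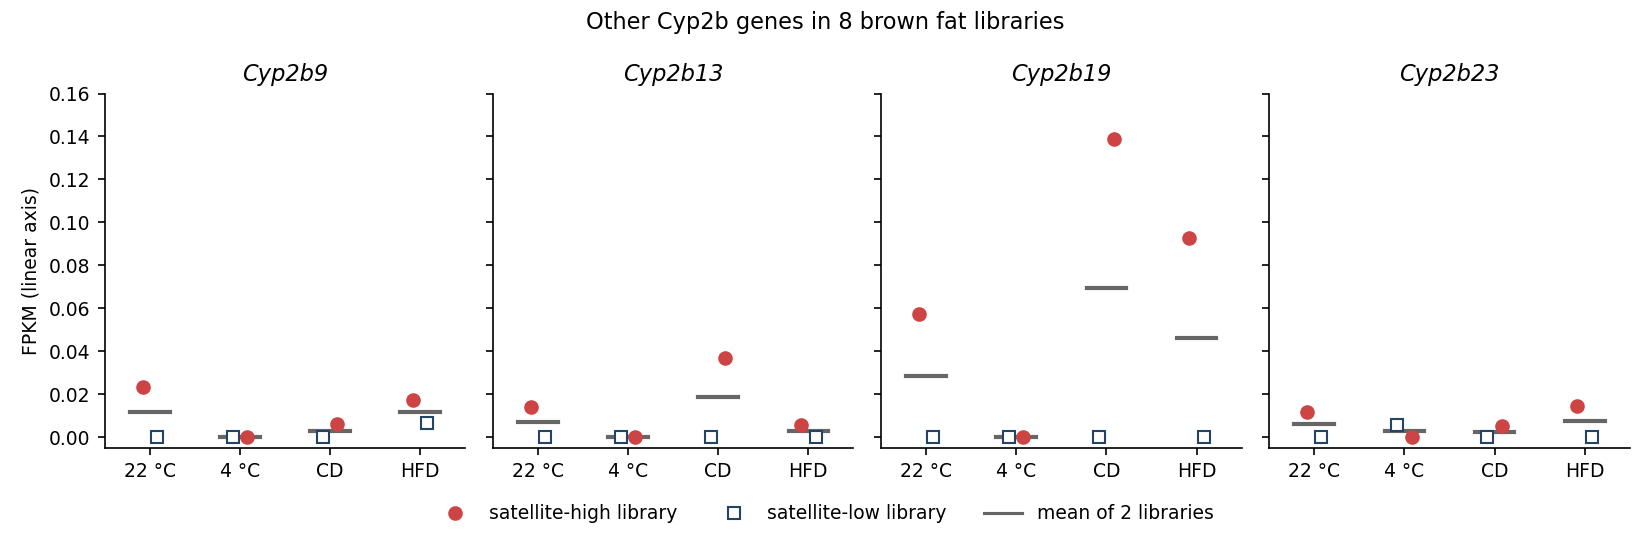
FPKM on a linear axis of the 4 other Cyp2b genes; each point is 1 library, circles satellite-high and squares satellite-low, and bars are the means of 2. No value exceeds 0.139 FPKM, and the values above 0 in satellite-low libraries are 0.00548 and 0.00638 FPKM.

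The step of 1 fragment was also read in the copies. For Cyp2b9, Cyp2b13 and Cyp2b23, which have 1 annotated transcript each, all 11 values above 0 were whole fragments within 0.0101 of a fragment. Cyp2b19 has several annotated transcripts, so its step is not certain, and its 3 values came to about 18.3, 33.8 and 24.2 fragments.

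The promoters of the cluster are shown because Cyp2b10 and its copies differed so widely in level. The stretches run from 250 to 51 bases before the RefSeq start (GRCm38.p6), and capitals mark AGGTCA or its reverse complement, the core letters bound by nuclear receptors such as CAR.

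Cyp2b10 (chr7:25897408-25897607, plus): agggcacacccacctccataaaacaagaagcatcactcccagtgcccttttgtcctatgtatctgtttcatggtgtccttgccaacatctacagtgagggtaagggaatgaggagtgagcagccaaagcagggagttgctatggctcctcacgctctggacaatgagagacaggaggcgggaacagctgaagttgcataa

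Cyp2b9 (chr7:26173159-26173358, plus): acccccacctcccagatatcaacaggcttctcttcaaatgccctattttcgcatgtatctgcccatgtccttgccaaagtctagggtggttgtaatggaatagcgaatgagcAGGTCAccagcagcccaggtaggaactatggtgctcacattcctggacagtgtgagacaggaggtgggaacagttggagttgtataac

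Cyp2b23 (chr7:26686481-26686680, minus): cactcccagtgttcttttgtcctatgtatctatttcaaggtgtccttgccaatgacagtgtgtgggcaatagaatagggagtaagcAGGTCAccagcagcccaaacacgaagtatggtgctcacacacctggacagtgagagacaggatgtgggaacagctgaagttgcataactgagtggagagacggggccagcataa

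The Cyp2b10 stretch was 70.0% identical to those of Cyp2b9 and Cyp2b13, 62.2% to that of Cyp2b19 and 56.5% to that of Cyp2b23. Promoter windows of 300 bases (250 before to 50 after the start) were found for all 9 genes and searched on both strands. AGGTCA occurred in those of Cyp2b9, Cyp2b13, Cyp2b19, Cyp2b23 and Cyp2f2 and not in that of Cyp2b10, and in 16.2% (5288) of all 32544 promoters. TGACGTCA, the full cyclic AMP response element, occurred in 1.80% of all promoters, and TGACG, which is part of it, in 20.9%. Neither was in any of the 9 windows. A match is a string of letters and not a shown binding site, and sites farther from the start were not searched.

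The genes around Cyp2b10 are described next. Their cold differences had to be smaller, since Cyp2b10 was chosen for the largest. Within 500 kb of the gene 48 other genes are listed, of which 17 passed the filter on low values. None was past threshold in the cold with limma (lowest adjusted p 0.0777), against 1.22% higher and 0.223% lower of all genes tested. Their log2 differences ran from −0.08 to 0.92 with a median of 0.13, against a median of 0.07 over all genes tested. All 17 start upstream of Cyp2b10, the nearest being Axl, a receptor tyrosine kinase, at 109 kb. Among the 11 that averaged 1 FPKM or more, Lipe, the hormone-sensitive lipase, had a mean of 286 FPKM and a cold difference of 0.24 (adjusted p 0.647). Bckdha, a subunit of the branched-chain ketoacid dehydrogenase, had a mean of 158 FPKM and a difference of 0.05 (adjusted p 0.919). Atp5sl had the highest difference at 0.92 (adjusted p 0.0800). B9d2, Tgfb1, Ccdc97, Exosc5, Hnrnpul1, Ceacam1 and the antisense gene 4732471J01Rik completed that number. In the diet comparison 17 genes passed the filter, Cyp2s1 in place of Gm15495. Their differences lay between −0.40 and 1.12, and none was past threshold, against 0.0513% higher and 0.0171% lower of all genes tested.

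**Figure D4:**
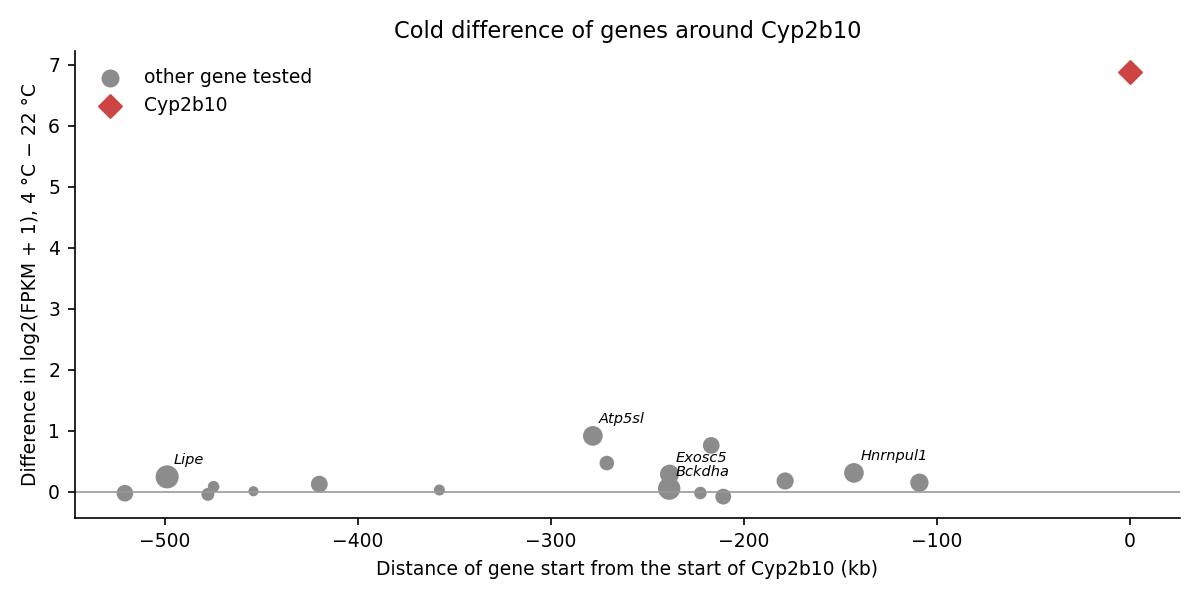
Cold difference in log2(FPKM + 1), 4 °C minus 22 °C, of Cyp2b10 (diamond) and the 17 tested genes within 500 kb (grey, larger with higher mean FPKM) against distance of their starts in kb. Cyp2b10 lies at 6.88 and no neighbour above 0.92.

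Cyp2e1 (ENSMUSG00000025479, chr7:140763739-140774987, plus), on the same chromosome but far from the cluster, was the most abundant P450 of the 9 genes at 22 °C. It had 177 and 51.9 FPKM at 22 °C and 149 and 138 FPKM at 4 °C. The cold values lay between those at 22 °C, so the groups overlapped. The log2 difference of 0.57 (SE 0.58, 95% interval −0.90 to 2.04, adjusted p 0.590, limma) was within the spread between replicates. It was −0.36 between satellite-high and 1.50 between satellite-low libraries.

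In the diet experiment Cyp2e1 was much lower. It had 5.15 and 14.7 FPKM in CD and 1.05 and 0.800 FPKM in HFD, and both HFD libraries lay below both CD libraries, as did 5.8% of all genes tested. The means were 9.92 ± 6.75 and 0.926 ± 0.179 FPKM (SD, n = 2 each). The log2 difference was −2.35 (SE 0.45), with −2.93 between the satellite-high and −1.77 between the satellite-low libraries, but the adjusted p of 0.141 (limma) was not past threshold. With library type as a covariate it was past threshold (adjusted p 0.00635, limma), but that setting called 745 of 17543 genes, against 12 in the main fit. Without 1 library the difference ran from −3.03 to −1.68. Such a fit assumes that the lone library of a group varies like the others. All 4 libraries of the cold experiment, at 51.9 FPKM or more, lay above all 4 of the diet experiment. CD replicate 6, whose name has the prefix of the cold experiment's libraries, had 5.15 FPKM.

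Levels of markers of other tissues also differed between the diet libraries. Of 8 hepatocyte markers found, 5 were tested, and all 5 were lower in both HFD libraries, as were 5.8% of all genes tested, with none past threshold (median log2 difference −0.32, lowest adjusted p 0.151). The summed level of all 8 was 2.52 to 3.80 FPKM in CD and 0.630 to 1.49 FPKM in HFD, and no hepatocyte marker was at 0 in both libraries of a group. Of 11 skeletal muscle markers 10 were lower in both HFD libraries, against the same 5.8% of all genes (median −3.67), with sums of 542 to 1392 FPKM in CD and 15.7 to 170 FPKM in HFD. None of them was past threshold (lowest adjusted p 0.137). Their part in the Cyp2e1 difference was not tested. The library of a group with the higher Cyp2e1 had the higher hepatocyte sum at 22 °C (6.73 against 1.68 FPKM) and at 4 °C (1.94 against 0.970), but the lower one in CD (2.52 against 3.80) and in HFD (0.630 against 1.49).

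Cyp2f2 (ENSMUSG00000052974, chr7:27119909-27133660, plus), which lies just beyond the Cyp2b cluster, had 3.91 and 0.803 FPKM at 22 °C and 3.97 and 3.16 FPKM at 4 °C. The groups overlapped, and the low value of 22 °C replicate 7 was matched by a low Cyp2e1 in that library. The log2 difference was 0.61 (SE 0.48, 95% interval −0.59 to 1.82, adjusted p 0.475, limma), −0.24 between satellite-high and 1.46 between satellite-low libraries. In the diet experiment Cyp2f2 was at 0.163 and 0.0569 FPKM in CD and at 0.0753 and 0.0835 FPKM in HFD, too low to be tested. The 4 club cell and lung markers summed to at most 0.146 FPKM in any library. That highest sum was in HFD replicate 2, where it lay above the Cyp2f2 level of 0.0753 FPKM, and in the 4 libraries of the cold experiment the sum lay below Cyp2f2. The part of lung RNA in the Cyp2f2 levels was not tested.

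Por (ENSMUSG00000005514, chr5:135670033-135735326, plus) varied little, from 31.4 to 55.9 FPKM over all libraries. It had 31.7 and 32.8 FPKM at 22 °C and 43.2 and 40.3 FPKM at 4 °C, and both cold libraries lay above both others, as did 37.9% of all genes tested. The log2 difference was 0.36 (SE 0.20, 95% interval −0.14 to 0.86, adjusted p 0.322, limma), and rescaling to the autosomal sum without Ucp1 brought it to −0.02. Por had 31.8 and 31.4 FPKM in CD and 55.9 and 48.3 FPKM in HFD. Both HFD libraries lay above both CD libraries, which held for 39.9% of genes. The difference of 0.70 (SE 0.42, 95% interval −0.27 to 1.67, adjusted p 0.497, limma) was not past threshold, and it was 0.35 with median centring. With library type as a covariate the adjusted p was 0.0474 (limma), but the difference of 0.70 stayed below the 1 that a call required. None of Cyp2e1, Cyp2f2 and Por was lower in both 4 °C libraries than in both at 22 °C, which held for 20.6% of all genes tested.

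**Figure D5:**
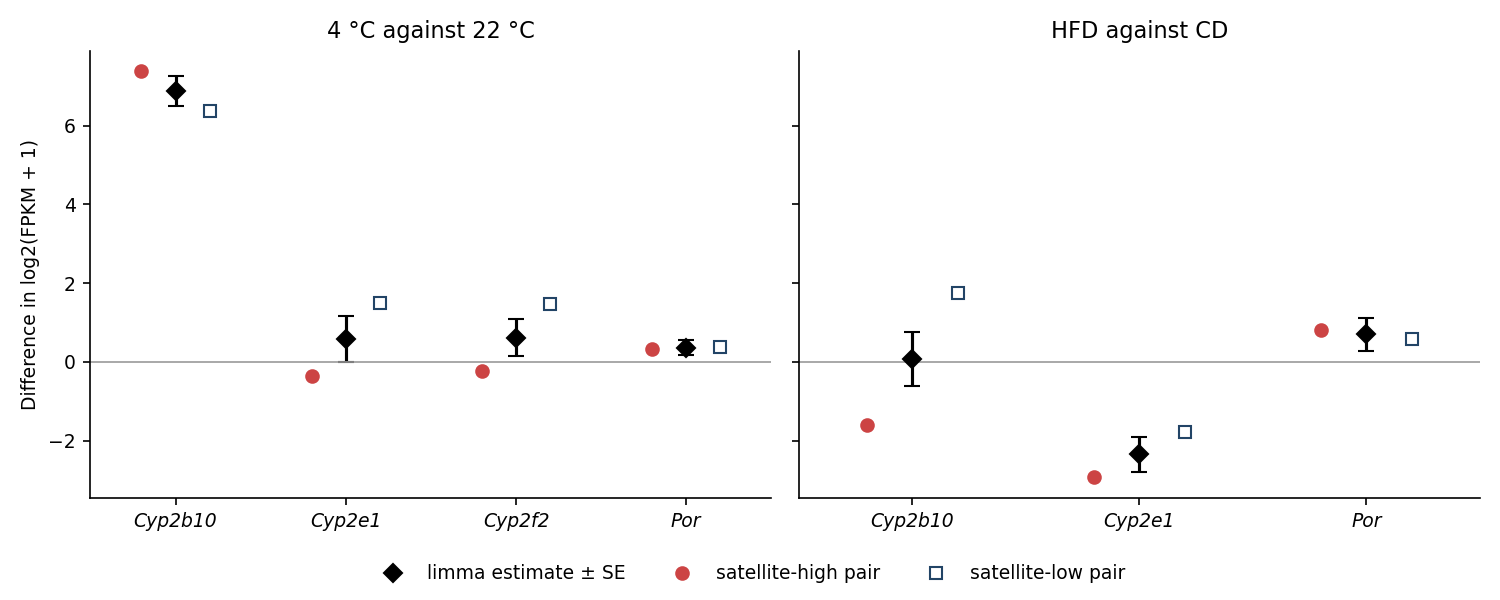
Differences in log2(FPKM + 1) of the genes that passed the filter on low values, 4 in the cold (left) and 3 in the diet comparison (right); diamonds are limma estimates with their SE, circles and squares the differences within satellite-high and satellite-low pairs. Cyp2b10 in diet and Cyp2e1 and Cyp2f2 in cold have pairs on opposite sides of 0.

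Nr1i3 (ENSMUSG00000005677, chr1:171213970-171220701, plus), the receptor gene, stayed at 0.0474 to 0.108 FPKM over all 8 libraries. It had 0.108 and 0.0924 FPKM at 22 °C and 0.0944 and 0.0556 FPKM at 4 °C. The groups overlapped. CD had 0.0757 and 0.0487 FPKM and HFD 0.0474 and 0.0952 FPKM. By the length of the longest transcript, these values stand for roughly 13 to 38 fragments each. They did not pass the filter, so Nr1i3 was not tested.

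The other receptors and partners of this pathway were read from a list of 19 genes. Nr1i2, which encodes the related pregnane X receptor, was at most at 0.0221 FPKM, and Hnf4a, a nuclear receptor of hepatocytes, at most at 0.0460 FPKM. Of 16 genes tested, 1 was past threshold and higher in the cold and none lower, against 1.22% and 0.223% of all genes tested. This was the coactivator Ppargc1a, with 10.9 and 10.8 FPKM at 22 °C and 107 and 73.6 FPKM at 4 °C, a log2 difference of 2.92 (SE 0.25, adjusted p 0.0208, limma). It was not past threshold without 4 °C replicate 2 (adjusted p 0.0838) or with no filter on low values (0.221). None was past threshold in the diet comparison, against 0.0513% higher and 0.0171% lower of all genes tested. There the chaperones Hsp90ab1 and Hsp90aa1 had the highest levels at 142 to 234 and 73.2 to 172 FPKM. The list's median log2 difference was 0.15 in the cold and 0.32 in the diet comparison, against 0.07 and 0.18 over all genes tested.

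Genes that serve P450 enzymes, as donors of electrons or haem or in later steps, were read from further lists. All 10 electron donors and genes of haem turnover were tested, and none was past threshold in either comparison (medians 0.58 in the cold and 0.30 in diet). Of all genes tested, 1.22% were past threshold and higher and 0.223% lower in the cold, and 0.0513% and 0.0171% in diet. Lists this short would often hold no gene past threshold at these shares. The medians over all genes tested were 0.07 in the cold and 0.18 in diet. Alas1, which encodes the first enzyme of haem synthesis and is known in liver to follow P450 demand, had 214 and 143 FPKM at 22 °C, 268 and 217 at 4 °C, 144 and 66.6 in CD and 196 and 233 in HFD. Cyb5a, cytochrome b5, ranged from 65.6 to 274 FPKM. Of 29 genes for conjugation, epoxide hydrolysis and export, 21 were tested in the cold and 19 in diet, with none past threshold (medians −0.02 and 0.13). Their most abundant members were Mgst1, a microsomal glutathione transferase, at 243 to 609 FPKM and Ces1d, a carboxylesterase of fat and liver, at 218 to 566 FPKM.

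Most other P450 genes were too low to be tested in BAT. Of 42 other CYP2 genes 6 were tested in the cold and 8 in diet, of 27 CYP1, CYP3 and CYP4 genes 10 and 9, and of 19 P450 genes for sterols, bile acids, retinoids and steroids 7 and 5. None of them was past threshold in either comparison. The shares of all genes tested were 1.22% higher and 0.223% lower in the cold and 0.0513% and 0.0171% in diet. Median log2 differences of the 3 lists in the cold were 0.02, 0.26 and 0.08, against 0.07 over all genes tested. Cyp2u1, a fatty acid hydroxylase, had 4.31 and 6.29 FPKM at 22 °C and 16.2 and 12.1 FPKM at 4 °C, a log2 difference of 1.27 (SE 0.25, adjusted p 0.0650). Cyp2d22 had 7.07 to 11.6 FPKM over all libraries and a cold difference of 0.51 (adjusted p 0.178, limma). The difference fell to 0.25 with median centring and to 0.15 after rescaling to the autosomal sum without Ucp1.

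Cyp4b1, a P450 of lung and fat, had the highest mean over all 8 libraries in these lists, with 14.6 and 14.6 FPKM at 22 °C, 146 and 37.6 at 4 °C, 86.6 and 50.9 in CD and 104 and 179 in HFD. Both cold libraries lay above both at 22 °C, but they lay far apart, and the difference of 2.27 (SE 0.62, adjusted p 0.110) was not past threshold. It was 1.30 without 4 °C replicate 2 and 3.23 without replicate 11. With library type as a covariate Cyp4b1 was past threshold (adjusted p 0.0406, limma), as were Cyp2u1 (0.0282) and Cyp1a1 (0.0387). That setting called 859 of the 17477 genes tested, against 252 in the main fit. Cyp4v3, a fatty acid hydroxylase, had 7.97 and 7.26 FPKM at 22 °C and 4.46 and 1.76 FPKM at 4 °C, a difference of −1.15 (SE 0.35, adjusted p 0.132). It was −0.66 without 4 °C replicate 11 and −1.64 without replicate 2. Cyp27a1, the sterol 27-hydroxylase, ranged from 13.2 to 25.7 FPKM over all libraries, and Cyp51, lanosterol demethylase, from 2.86 to 10.02 FPKM. Their cold differences were 0.08, which turned negative under both other scalings, and 0.93 (adjusted p 0.862 and 0.154, limma). That of Cyp51 was 0.58 without 4 °C replicate 2 and 1.28 without replicate 11. Cyp1a1, the classic target of the aryl hydrocarbon receptor, was picked out after its values were seen. It had 2.59 and 0.594 FPKM at 22 °C, 10.5 and 7.60 at 4 °C and at most 0.0239 in the diet experiment, and its cold difference of 2.06 (SE 0.42) had an adjusted p of 0.0658.

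The 5 genes most like Cyp2b10 over the 8 libraries, among 10873 autosomal genes that averaged 1 FPKM or more, were Trp53inp1, Ranbp9, Tead1, Cars2 and Fah. Their Pearson r of log2(FPKM + 1) with Cyp2b10 was 0.994, 0.989, 0.989, 0.985 and 0.981. These are descriptions over 8 points that share their libraries, and the points split into 2 cold libraries and 6 others. Trp53inp1, a p53-induced nuclear protein, had 3.05 and 3.08 FPKM at 22 °C, 24.3 and 31.0 at 4 °C, 4.48 and 6.25 in CD and 3.85 and 5.79 in HFD. In all 5 genes the cold libraries were the 2 highest, and CD replicate 8 lay above CD replicate 6, as in Cyp2b10. Such likeness follows from how the 5 genes were chosen and is no separate result.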

How the data were processed

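RNA-Seq of BAT was done on rRNA-depleted, directional libraries with paired ends. Per the labels and the study's methods, the authors mapped reads to GRCm38 with TopHat2 2.0.10 and used Cufflinks with the Ensembl annotation for FPKM (version 2.2.1 in the submitters' processing notes, another in the methods). The deposited values, 1 per gene and library with no pooling, carry no unit in their header. They were taken as FPKM from the study's account and from the step of 1 fragment in low values. Depth is not stated, but low values fell on whole multiples of 1 fragment (97.7% to 98.7% within 0.1), worth 0.00438 to 0.00603 FPKM on 2000 bases. Fragment numbers and the limits set from them cover counting error only; the 95% intervals of differences are limma's and come from the spread between libraries. An exact 0 can be a missing estimate, so such a gene is called listed at 0.

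The scale was log2(FPKM + 1), and limma 3.58.1 was run in R 4.3.3 (lmFit, eBayes with trend), each comparison on its own 4 libraries. Adding 1 understates differences of low genes. Genes needed 0.1 FPKM in at least 2 of the 4 libraries. X, Y and mitochondrial genes were left out. P-values are two-sided with Benjamini-Hochberg adjustment. The test was tested on simulated data. The authors' DESeq2 test used counts not used here. Of 49452 genes, 49195 matched GENCODE M21 (GRCm38), whose transcripts gave the shared runs, compared with Biopython 1.88. Promoters are from RefSeq.

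The members and gene lists were chosen with earlier results of these data known. Named are all 9 genes, list members past threshold or else the 2 with the highest mean FPKM, the 5 genes most like Cyp2b10, and genes within 500 kb that averaged 1 FPKM or more. Marker lists are given by sums and counts. Nr1i2, Hnf4a, Cyp1a1, Cyp2s1 and Gm15495 were named outside this rule after their values were seen. Alternatives changed the pseudocount, filter, scaling, genes, libraries and covariate.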

Additional observations from a re-analysis of the deposited data

How the results depend on the processing

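With 2 libraries a group and FPKM without counts, calls depended strongly on the setting, and the cause was not tested. In the cold, 252 genes were past threshold (213 higher, 39 lower). There were 474 with a pseudocount of 0.1, 6 with no filter on low values, 529 with a filter of 1 FPKM, 920 with X, Y and mitochondrial genes kept, 439 with all 8 libraries in 1 fit and 859 with library type as a covariate. Median centring gave 758 (493 higher, 265 lower) and rescaling to the autosomal sum without Ucp1 573 (315 higher, 258 lower). Leaving out 1 library gave 512 (22 °C replicate 4), 767 (22 °C replicate 7), 1 (4 °C replicate 2) and 434 (4 °C replicate 11). In the diet comparison 12 genes were past threshold with limma. There were 0 with no filter, 0 after rescaling and 0 with X, Y and mitochondrial genes kept, where 2830, 2321 and 2533 genes had an unadjusted p under 0.05. There were 24 with the filter of 1 FPKM, 44 with median centring (23 higher, 21 lower, against 9 and 3), 75 with all 8 libraries, 745 with library type, and 726, 227, 343 and 98 without CD replicates 6 and 8 and HFD replicates 2 and 6.

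The Cyp2b10 cold difference ran from 6.33 to 8.28, the latter with a pseudocount of 0.1. In diet it was −0.29 with median centring, −0.11 after rescaling and −0.89 to 1.02 without 1 library, and no setting brought it past threshold. Without 1 library the cold difference of Cyp2e1 ran from −0.31 to 1.45, and that of Cyp2f2 from −0.11 to 1.34, past threshold without 22 °C replicate 4 (adjusted p 0.0307). Por turned to −0.024 in the cold after rescaling. Cyp27a1 turned to −0.18 with median centring, −0.29 after rescaling and ran from −0.13 to 0.29 without 1 library. Cyp2e1 in diet kept its direction in all 12 alternatives (−3.11 to −1.68). In those that left out no library, its adjusted p ran from 0.00635 to 0.743 (limma). Among these it was past threshold only with library type as a covariate. Of genes not past threshold in the cold, Cyp2u1 and Cyp1a1 passed in 5, Cyp4b1 in 4 and Cyp4v3 in 2 of 12. Every setting in which 1 of these genes passed also called more genes in all than the main fit. Replicate numbers could not be used to pair libraries. None occurs at both temperatures, and only 1 occurs in both diet groups. Libraries were matched by library type alone, in the covariate fit and in the differences within each type. That matching follows the Gm10800 level and no known link between mice.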

Other observations

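The genes most like Cyp2e1 were also looked up, after its values were seen. By the same measure as for Cyp2b10, the closest of the 10873 genes were Hsd11b1, which makes active glucocorticoid (r 0.959), Ppfibp2 (0.958), Pxmp2, a peroxisomal membrane channel (0.945), Mmd2 (0.939) and Fam117a (0.938). Hsd11b1 had 78.5 and 62.3 FPKM at 22 °C, 90.2 and 62.9 at 4 °C, 35.5 and 38.9 in CD and 11.9 and 13.7 in HFD. Pxmp2 had 22.3 and 16.0 FPKM at 22 °C, 20.4 and 11.3 at 4 °C, 7.13 and 6.43 in CD and 2.89 and 3.21 in HFD. Like Cyp2e1, both genes were higher in each library of the cold experiment than in each of the diet experiment, and lower in HFD than in CD. This likeness follows from how the genes were chosen and is no separate result. The experiments differed in the age of the mice, and no test was made between them.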
